A study of Mus musculus with 14 samples.

Results

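The regions described here are H3K4me2 peaks of MLL-AF9 leukemia cells that held several separate WDR5 peaks, called multi-WDR5 domains below. They were chosen from the DMSO lists as autosomal H3K4me2 peaks narrower than 5000 bp that overlapped 2 or more WDR5 peaks by at least 1 bp. This rule picked 1274 of the 101030 autosomal H3K4me2 peaks below that width, or 1.26%, out of 105136 H3K4me2 peaks in the list. The 9219 peaks of the same kind with exactly 1 WDR5 peak served as the comparison and are called single-WDR5 domains, and the other 90537 had no WDR5 peak.

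Chromatin immunoprecipitation sequencing (ChIP-seq) was performed in mouse bone marrow cells transduced with MLL-AF9, a leukemia fusion protein, and grown in medium containing 15% serum and 10 ng/ml IL-3. MAF9 cells received 20 µM MM-401 or its solvent DMSO for 2 days and were profiled for MLL1, WDR5 and H3K4me2. MAF9-transduced cells of the genotype MLL1 flox/flox, ER-Cre+/- received 400 nM 4OHT, which activates the Cre, or its solvent EtOH for 2 days and were profiled for WDR5 and H3K4me2 only. Each of these 10 ChIP-seq libraries was deposited as 1 list of peak positions in the mm9 build of the mouse genome, and 4 input samples were not analysed here. The lists do not show whether the Mll1 alleles were deleted. The flox cells also differ from the MAF9 cells in origin and experiment. Cell origin and treatment therefore cannot be told apart when EtOH or 4OHT is set beside DMSO.

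H3K4me2 is dimethylation of lysine 4 of histone H3 and marks active or poised promoters and enhancers. WDR5 is a core subunit shared by the MLL family of H3K4 methyltransferase complexes and holds the catalytic subunit in its active arrangement. MLL1 is one of those catalytic subunits, and MM-401 blocks its contact with WDR5. A peak is a stretch of the genome where the caller found ChIP reads enriched, and the lists carry no peak height, score or read count. The depth behind a peak is therefore unknown, and what is described is where peaks were called, not how strong the binding was. Each condition and antibody was represented by a single library, so replicate error is missing and conditions were not tested against each other. The 95% intervals in parentheses are Wilson intervals for shares and order-statistic intervals for medians, and they cover the counting of peaks only. Peaks of 1 library are not replicates, and neighbouring peaks are not independent.

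Most multi-WDR5 domains held the smallest number the rule allows. There were 1110 domains with 2 WDR5 peaks (87.1%), 147 with 3 (11.5%), 14 with 4 and 3 with 5. Their median width was 2675 bp, with an interquartile range of 1900 to 3550 bp, against 1650 bp for single-WDR5 domains and 350 bp for H3K4me2 peaks with no WDR5. A wider domain has more room for peaks, and the median width rose from 2550 bp with 2 WDR5 peaks to 3200 bp with 3. At the width limit, the widest domain inside it was chr1:134212076-134217050, 4975 bp with 3 WDR5 peaks, and the narrowest peak outside it was chr1:88336526-88341525, 5000 bp with 4 WDR5 peaks. Beyond the limit, 359 of 1610 autosomal H3K4me2 peaks also held 2 or more WDR5 peaks, as did 11 of 2496 on the sex chromosomes, and none of these was included.

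The multi-WDR5 domains took up 2721 WDR5 peaks, 18.8% of the 14481 in the DMSO list, and 11 of them reached into a second domain. The median width of these WDR5 peaks was 175 bp against 200 bp in single-WDR5 domains, and together they covered a median of 14.5% of the length of a domain. Chromosome 1 carried more of the domains than of other H3K4me2 peaks. It held 182 multi-WDR5 domains, or 14.3% (12.5 to 16.3), against 9.76% (9.17 to 10.4) of single-WDR5 domains and 7.33% of all autosomal H3K4me2 peaks below the width limit.

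Neighbouring WDR5 peaks within a domain lay close to each other. Over 1458 gaps the median distance from the end of 1 WDR5 peak to the start of the next was 275 bp (250 to 275), with an interquartile range of 100 to 575 bp. Centres of neighbouring WDR5 peaks were a median of 500 bp apart (475 to 512.5). The narrowest gaps were 25 bp, which is 1 step of the grid on which the caller placed peaks, and 182 gaps (12.5%) had this width. Whether such a pair is 2 binding sites or 1 site that the caller divided cannot be told apart from positions alone. Joining WDR5 peaks 100 bp apart or less left 979 domains with a median gap of 375 bp.

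The gaps widened with the domain. The median gap was 175 bp in domains of over 1000 and up to 2000 bp and 475 bp (375 to 625) in those above 4000 bp. Each gap lies inside its domain, so a wider domain leaves room for wider gaps, and the rise is given as a description. WDR5 peaks that were close together usually shared a domain, as 70.5% (64.7 to 75.8) of neighbouring autosomal WDR5 pairs 25 bp apart lay in a single multi-WDR5 domain. That share was 46.7% for gaps over 500 and up to 1000 bp and 5.97% for gaps over 2000 and up to 5000 bp. A fall with distance is in part fixed by the rule, since domains had to be narrower than 5000 bp. Pairs that shared a wider H3K4me2 peak were not counted as sharing a domain. The spacing in the other lists, taken on H3K4me2 and WDR5 peaks of the same list, was similar in scale. Median gaps were 350 bp (325 to 375) in 1648 such domains under MM-401, 300 bp (275 to 300) in 2366 with EtOH and 325 bp (325 to 350) in 2781 under 4OHT. Each of these lists thus held more domains of this kind than DMSO, and its WDR5 list was longer too, with 17273 peaks under MM-401, 34587 with EtOH and 41054 under 4OHT.

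**Figure D1:**
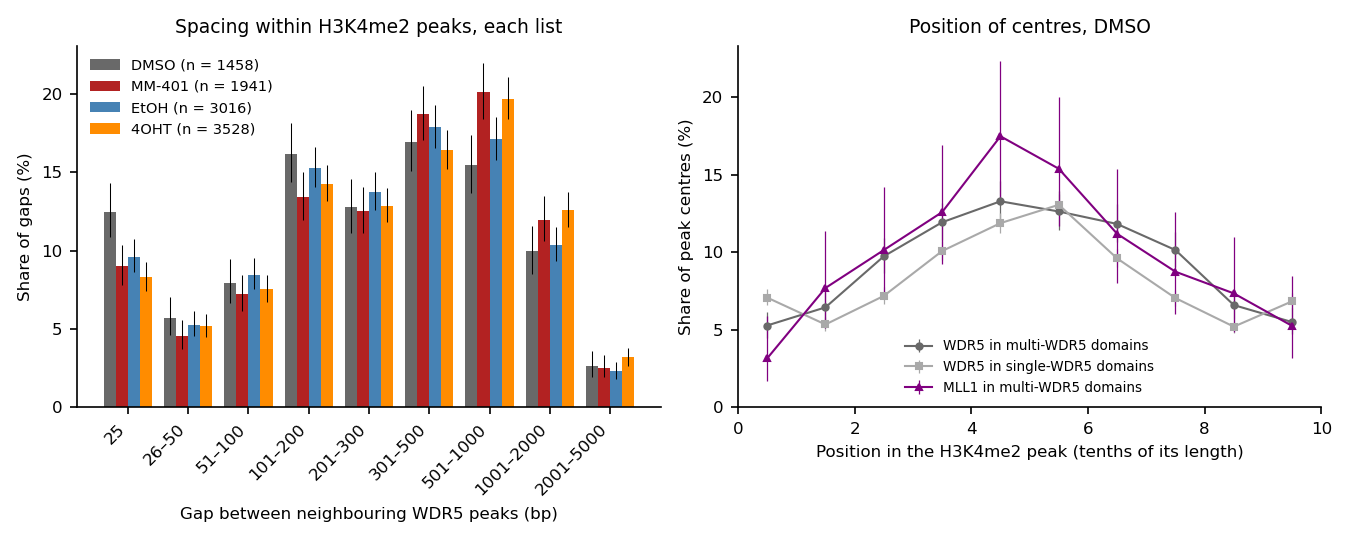
Left, share of gaps between neighbouring WDR5 peaks (%, bars with 95% Wilson intervals) by gap width in bp, for domains of each list; gaps of 25 bp made up 12.5% of gaps in DMSO and 9.02% under MM-401. Right, share of peak centres (%, with 95% Wilson intervals) in 10 equal bins along the DMSO H3K4me2 peak for WDR5 in multi- and single-WDR5 domains and for DMSO MLL1 in multi-WDR5 domains; the 3 curves are highest in the middle bins, and WDR5 of single-WDR5 domains rises again in the outermost bins.

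WDR5 peaks sat towards the middle of their domain rather than at its edges. Counting a WDR5 peak once for each domain it touched gave 2732 positions, of which 26.0% (24.4 to 27.7) had their centre in the middle 20% of the domain and 23.8% (22.2 to 25.4) in the outer 40%, which is 20% at each end. Single-WDR5 domains had nearly the same shares, 25.1% (24.2 to 26.0) and 24.4% (23.5 to 25.3). The sets differed at the edges, where the centre lay outside the domain for 6.66% (5.79 to 7.66), against 16.7% (16.0 to 17.5) in single-WDR5 domains. Likewise 11.1% of the WDR5 peaks crossed a domain edge, against 27.9% in single-WDR5 domains. Multi-WDR5 domains were also wider, and the part of width in these shares was not tested. All these positions come from the DMSO lists that chose the domains and are given as a description.

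The WDR5 peaks of 1 domain spanned a small part of it. The distance between the outermost WDR5 centres had a median of 562.5 bp (537.5 to 587.5), or 23.3% of the domain. WDR5 centres lay on both sides of the domain midpoint in 587 domains, 46.1% (43.4 to 48.8). This was the case for 43.2% of domains with 2 WDR5 peaks, 64.6% with 3 and 76.5% of the 17 with 4 or 5. The nearer outermost centre was a median of 499.5 bp from its edge and the farther one 1312 bp. The surroundings of the domains did not set them apart, as another H3K4me2 peak lay within 1000 bp of 71.0% (68.5 to 73.5) of multi-WDR5 and 71.6% (70.7 to 72.5) of single-WDR5 domains.

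The 3 domains with 5 WDR5 peaks differed in layout. On chr1:52285276-52289975, a domain of 4700 bp, 5 WDR5 peaks of 75 to 150 bp were packed at 1 end, with gaps of 25 to 175 bp. On chr1:184037351-184040300, a domain of 2950 bp, 5 WDR5 peaks of 100 to 425 bp were centred between 1362 and 2187 bp from its start, with gaps no wider than 75 bp. On chr5:151394351-151398625, a domain of 4275 bp, 5 WDR5 peaks were spread through the domain with gaps of 250 to 950 bp. The first layout is a tight row at an edge, the second a tight row in the middle, and the third an open array. The widest single gap, 3875 bp, was at chr6:119338851-119343525, where 2 WDR5 peaks of 75 bp stood near opposite ends and a DMSO MLL1 peak of 187 bp lay between them.

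**Figure D2:**
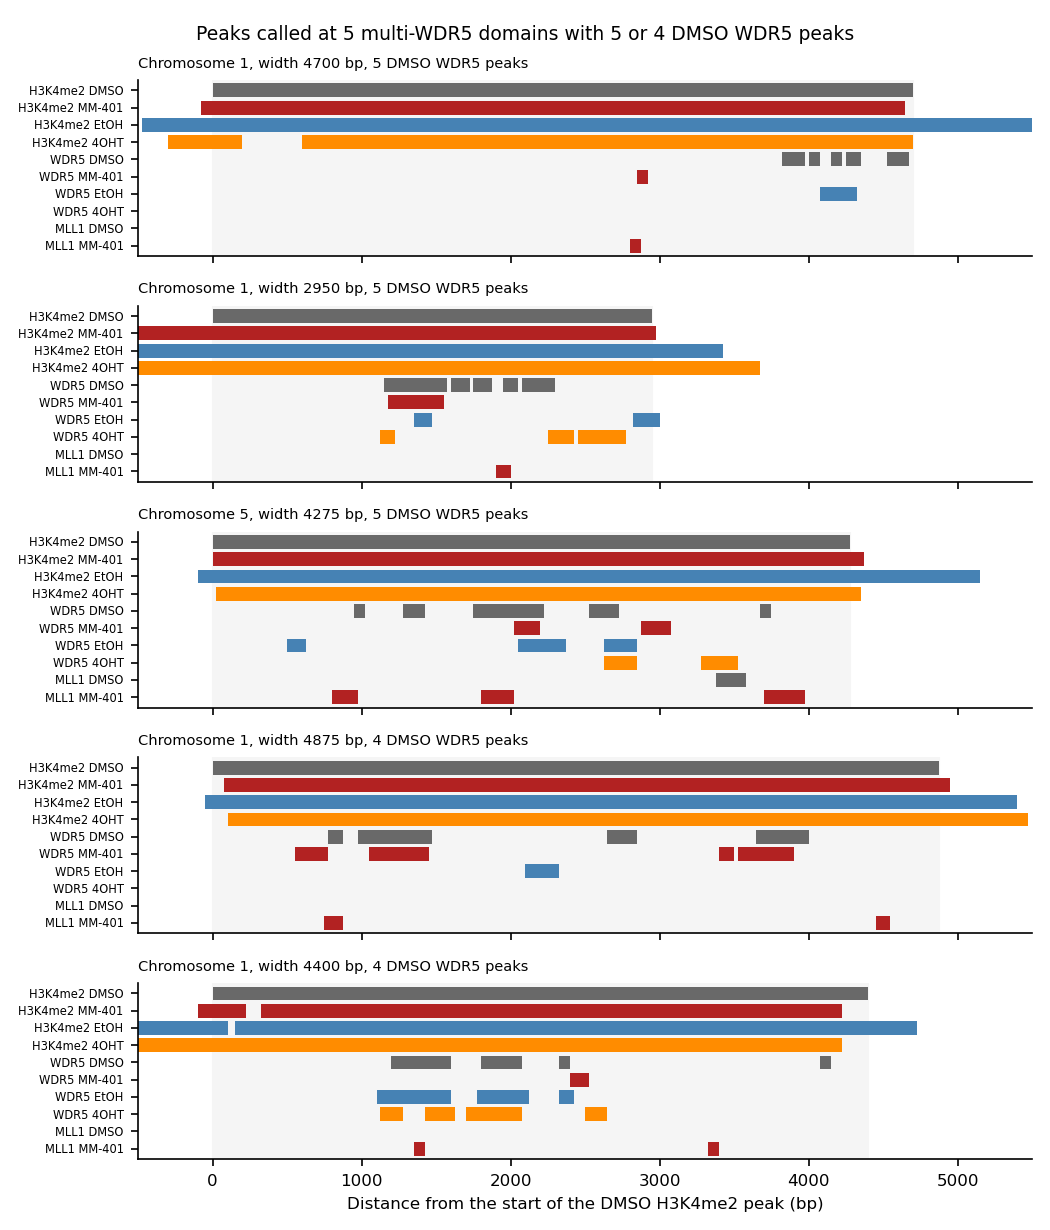
Peaks called in each list (rows, coloured by treatment) at the 3 multi-WDR5 domains with 5 DMSO WDR5 peaks and at the first 2, in chromosome order, of the 14 with 4, by distance in bp from the start of the DMSO H3K4me2 peak (grey); peaks that run past the plotted window are cut off at its border. H3K4me2 was called over nearly the whole domain in every list, while the positions of WDR5 peaks differed between lists.

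MLL1, which the choice of domains did not use, was called more often in multi-WDR5 than in single-WDR5 domains. In DMSO, 254 multi-WDR5 domains overlapped an MLL1 peak, 19.9% (17.8 to 22.2), beside 3.32% of all autosomal H3K4me2 peaks below 5000 bp. Single-WDR5 domains overlapped MLL1 in 9.94% (9.34 to 10.6), a difference of 10.0 percentage points (Newcombe 95% interval 7.81 to 12.4). MLL1 was more frequent in wider peaks, and weighted to the widths of multi-WDR5 domains the share was 15.9% in single-WDR5 domains and 12.9% in H3K4me2 peaks with no WDR5. Within width classes, the shares were 10.7% (7.73 to 14.7) against 7.06% (6.25 to 7.97) above 1000 and up to 2000 bp and 26.0% (21.4 to 31.1) against 20.6% (18.1 to 23.3) above 3000 and up to 4000 bp. These differences were 3.66 points (Newcombe interval 0.537 to 7.69) and 5.38 points (0.0844 to 11.1). In the classes ending at 3000 and 5000 bp they were 3.07 points (-0.750 to 7.40) and 5.37 points (-2.28 to 13.3). The multi-WDR5 value was thus higher in these 4 classes and the interval included 0 in 2 of them. Narrower classes held few multi-WDR5 domains. Over 500 and up to 1000 bp the shares were 4.55% of 44 against 2.70%. Up to 500 bp the order turned, with 0 of 10 against 1.22%. MLL1 was found in 18.9% (16.7 to 21.3) of domains with 2 WDR5 peaks, 25.9% (19.5 to 33.5) with 3 and 35.3% (17.3 to 58.7) of the 17 with 4 or 5. The difference between 3 and 2 WDR5 peaks was 6.93 points (0.0939 to 14.9), and that between 4 or 5 and 2 was 16.4 points (-1.77 to 39.9). These shares were not weighted by width. Domains with 3 WDR5 peaks were also wider, a median of 3200 bp against 2550 bp with 2, and the part of width was not tested.

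Within the domains MLL1 did not always coincide with WDR5. Of 286 DMSO MLL1 peaks in multi-WDR5 domains, 39.9% (34.4 to 45.6) overlapped a WDR5 peak and 39.5% (34.0 to 45.3) were centred between the outermost WDR5 centres. Their centres were a median of 252.25 bp (216 to 308.5) from the nearest WDR5 centre, and 32.9% (27.7 to 38.5) lay in the middle 20% of the domain. Only 28 domains held 2 or more DMSO MLL1 peaks, and the most was 3. On chr3:21833476-21837150 the 3 MLL1 peaks were spread from 1110.5 to 3375 bp from the domain start, around and beyond 2 WDR5 peaks at 1262 and 1837 bp. On chr5:125657551-125661525 all 3 MLL1 peaks, at 583.5 to 1382 bp, lay to 1 side of the WDR5 peaks at 1774.5 and 2599.5 bp.

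Under MM-401, 521 multi-WDR5 domains overlapped an MLL1 peak, 40.9% (38.2 to 43.6), against 22.4% (21.5 to 23.2) of single-WDR5 domains and 7.88% of all autosomal H3K4me2 peaks below 5000 bp. Weighted to the widths of multi-WDR5 domains, the single-WDR5 share was 34.5%. The MLL1 lists of DMSO and MM-401 came from different peak callers and hold 8525 and 27345 peaks, so a rise in MLL1 cannot be told apart from the change of caller. MLL1 was present in both lists at 129 domains, in DMSO only at 125, in MM-401 only at 392 and in neither at 628.

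Fewer of the WDR5 peaks in multi-WDR5 domains than in single-WDR5 domains were still called under MM-401. A DMSO WDR5 peak is called kept when a WDR5 peak of the other list overlapped it by at least 1 bp. Under MM-401, 895 of 2721 WDR5 peaks in multi-WDR5 domains were kept, 32.9% (31.2 to 34.7), beside 40.3% of all autosomal DMSO WDR5 peaks and 44.2% (43.2 to 45.3) in single-WDR5 domains. The difference from single-WDR5 domains was -11.3 percentage points (Newcombe interval -13.3 to -9.24). Narrow peaks were kept less often in both sets, and weighting single-WDR5 domains to the same WDR5 widths lowered their share to 41.5% only. Among WDR5 peaks over 200 and up to 300 bp wide, 46.1% (41.9 to 50.4) were kept in multi-WDR5 and 59.2% (57.0 to 61.4) in single-WDR5 domains. Above 500 bp the order turned, with 85.1% (77.7 to 90.4) of 121 peaks kept against 77.6% (73.1 to 81.6), a difference of 7.50 points (-0.922 to 14.5). Counting WDR5 peaks up to 500 bp apart as shared raised the multi-WDR5 share under MM-401 to 58.7%. The difference from single-WDR5 domains was not examined at that setting.

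In the flox cells the corresponding differences were smaller. In EtOH, 978 of the 2721 DMSO WDR5 peaks were overlapped, 35.9% (34.2 to 37.8), beside 34.7% of all autosomal DMSO WDR5 peaks, and the difference from single-WDR5 domains was 0.604 percentage points (-1.45 to 2.68). Under 4OHT, 859 were overlapped, 31.6% (29.8 to 33.3), beside 30.3% of all, with a difference of 1.75 points (-0.230 to 3.76). Both intervals include 0. With each WDR5 list reduced to the length of the DMSO list, its widest peaks kept, the difference under 4OHT was 1.99 points (0.182 to 3.84), an interval that leaves out 0. Weighted to the WDR5 widths of multi-WDR5 domains, the single-WDR5 shares were 33.4% in EtOH and 28.3% under 4OHT, below the intervals of the multi-WDR5 shares. Whether the difference under MM-401 departs from these values was not tested, because all 3 are read against the same DMSO peaks.

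**Figure D3:**
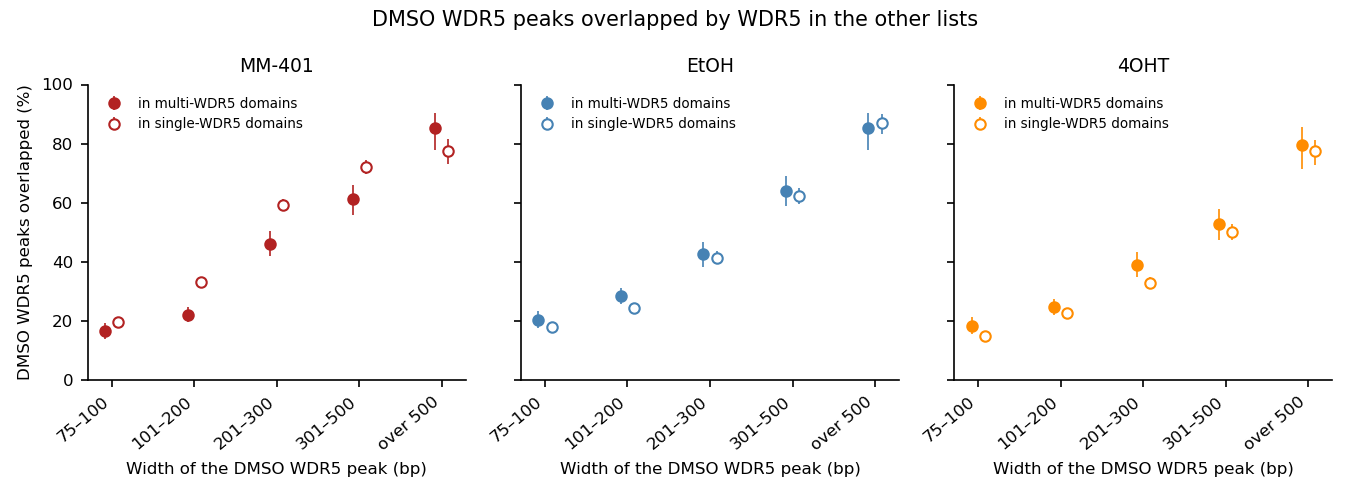
Share of DMSO WDR5 peaks (%, points with 95% Wilson intervals) overlapped by a WDR5 peak of the MM-401, EtOH or 4OHT list, by width of the DMSO peak in bp, for multi-WDR5 (filled) and single-WDR5 domains (open). Under MM-401 the filled points lie below the open ones in each class up to 500 bp, as in the class ending at 300 bp with 46.1% against 59.2%, and all shares rise with width.

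Few domains kept their full set of WDR5 peaks. Every DMSO WDR5 peak was kept in 150 domains under MM-401 (11.8%), 184 with EtOH (14.4%) and 139 under 4OHT (10.9%), and none was kept in 567 (44.5%), 536 (42.1%) and 596 (46.8%). In 15 domains every WDR5 peak was kept in all 3 lists, and in 224 none was kept in any. WDR5 peaks of the 15 had a median width of 312.5 bp, and those of the 224 a median of 125 bp. On chr1:59819201-59822650, one of the 15, WDR5 peaks of 425 and 650 bp in DMSO were overlapped by a single peak of 850 bp under MM-401, by 3 in EtOH and by 2 under 4OHT. On chr5:144224176-144227900, which had 4 WDR5 peaks in DMSO, none was kept in any list, and the lone MM-401 peak of 75 bp fell in the gap after the first of them.

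Counting all WDR5 peaks over the domains, whether or not they met a DMSO peak, 2 or more were called in 314 domains under MM-401, 24.6% (22.4 to 27.1), in 375 in EtOH, 29.4% (27.0 to 32.0), and in 379 under 4OHT, 29.7% (27.3 to 32.3). Of all autosomal H3K4me2 peaks below 5000 bp, 1.54%, 2.41% and 2.68% held that many in these lists. The order of the 3 lists turned with list length, since reducing each WDR5 list to the 14481 widest peaks gave 20.6% under MM-401, 15.5% with EtOH and 13.5% under 4OHT. A fall from DMSO is fixed by the choice of domains, since each had to hold at least 2 WDR5 peaks there. No WDR5 peak was called over 434 domains under MM-401, 357 with EtOH and 401 under 4OHT, and 68 domains held 2 or more in all 4 lists. Part of what was called lay at other places in the domain. Of 1239 WDR5 peaks over the domains under MM-401, 407 (32.8%) met no DMSO WDR5 peak, as did 532 of 1422 (37.4%) with EtOH and 629 of 1401 (44.9%) under 4OHT. Those under MM-401 were centred a median of 350 bp from the nearest DMSO WDR5 centre.

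**Figure D4:**
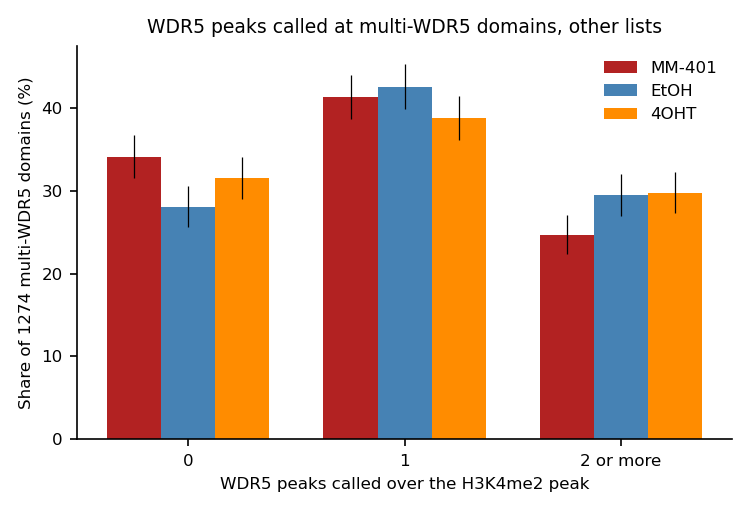
Share of the 1274 multi-WDR5 domains (%, bars with 95% Wilson intervals) over which 0, 1 or 2 or more WDR5 peaks were called in the MM-401, EtOH and 4OHT lists. In each list 1 peak is the most frequent count, and 2 or more were called in 24.6%, 29.4% and 29.7%; with WDR5 lists of equal length these became 20.6%, 15.5% and 13.5%.

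Of 2 WDR5 peaks in a domain, the wider was kept more often. In domains with 2 WDR5 peaks of unequal width, the wider was kept in 47.0% (44.0 to 50.1) under MM-401 and the narrower in 20.9% (18.6 to 23.6), with median widths of 275 and 125 bp. In EtOH these shares were 47.6% and 25.3%, and under 4OHT 42.2% and 23.8%. The peak nearer to a domain edge was kept more often than the inner one, in 37.6% (34.7 to 40.5) against 28.4% (25.8 to 31.1) under MM-401, 40.8% against 30.4% with EtOH and 37.2% against 26.5% under 4OHT. Both had a median width of 175 bp, but the inner peak was the narrower one in 582 pairs and the wider one in 431. Where the inner peak was the wider, it was kept in 44.1% (39.5 to 48.8) and the outer one in 23.7% (19.9 to 27.9) under MM-401, the reverse of the order by position. Where the inner peak was the narrower, it was kept in 18.7% (15.8 to 22.1) and the outer one in 49.3% (45.3 to 53.4). At the same rank of width, the outer peak was thus kept more often, a difference not tested. With EtOH the outer and inner shares were 52.9% and 40.4% for wider peaks and 26.9% and 24.1% for narrower ones. Under 4OHT they were 46.7% and 35.7%, and 26.9% and 21.6%. Peaks of the same rank can still differ in width. Over all WDR5 peaks centred inside a multi-WDR5 domain, position made little difference under MM-401. There 31.3% were kept in the outer 40%, 32.2% in the middle 20% and 30.0% between. With EtOH these shares were 38.2%, 33.5% and 31.4%, and under 4OHT 35.3%, 27.1% and 26.9%.

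Both WDR5 peaks of a pair were kept in 141 of 1110 domains under MM-401, 173 with EtOH and 132 under 4OHT. In 42, 75 and 58 of these, a single WDR5 peak of the other list overlapped both. At a gap of 25 bp this was the case for 22 of 129 pairs under MM-401, 28 with EtOH and 25 under 4OHT. Among 143 pairs over 1000 bp apart it was seen in none of the 3 lists, and a count of 0 allows a share of up to 2.10%. Of 182 WDR5 peaks centred outside their domain, 63.2% (56.0 to 69.9) were kept under MM-401, 69.2% with EtOH and 68.1% under 4OHT, but these peaks were wide, with a median of 350 bp. Among WDR5 peaks over 200 and up to 300 bp wide, 42.5% (28.5 to 57.8) of those outside were kept under MM-401, against 47.5% in the outer 40% and 44.1% in the middle 20%. Above 300 and up to 500 bp these shares were 70.8% (56.8 to 81.8), 62.3% and 59.0%. Above 500 bp they were 94.7% (85.6 to 98.2), 85.7% and 83.3%. Over 100 and up to 200 bp they were 30.0%, 21.7% and 23.9%, and up to 100 bp 14.3% of only 7 peaks, 16.3% and 19.7%. The peaks outside were thus kept most often in some width classes and not in others, and the part of width was not tested. In single-WDR5 domains 69.1% of WDR5 peaks centred outside were kept under MM-401.

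The share of WDR5 peaks kept was then compared between domains with and without MLL1. Under MM-401, 31.2% (27.5 to 35.1) of WDR5 peaks were kept in domains with a DMSO MLL1 peak and 33.4% (31.4 to 35.4) in domains without one. In EtOH the shares were 37.8% (33.9 to 41.9) and 35.5% (33.5 to 37.6), and under 4OHT 33.5% (29.7 to 37.5) and 31.1% (29.2 to 33.1). The interval of the difference, with minus without MLL1, included 0 in each list, from -6.43 to 2.21 points under MM-401, -2.13 to 6.85 with EtOH and -1.90 to 6.83 under 4OHT.

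Between EtOH and 4OHT, which come from the same cells, WDR5 peaks over the domains were shared more often than elsewhere. Of 1422 EtOH WDR5 peaks over multi-WDR5 domains, 607 were overlapped under 4OHT, 42.7% (40.1 to 45.3), beside 18.7% of all autosomal EtOH WDR5 peaks. The share was 38.9% (37.6 to 40.2) over single-WDR5 domains and 25.6% (24.7 to 26.5) over H3K4me2 peaks without DMSO WDR5. The difference from single-WDR5 domains was 3.79 percentage points (Newcombe interval 0.929 to 6.68), and that from H3K4me2 peaks without DMSO WDR5 17.1 points (14.4 to 19.8). These shares were not weighted by WDR5 width. EtOH WDR5 peaks over multi-WDR5 domains had a median width of 200 bp, against 125 bp in the whole EtOH list, and the part of width was not tested. The share over multi-WDR5 domains was 69.9% when peaks up to 500 bp apart counted as shared and 27.4% when at least 50% of the peak had to be covered. As an example, the 4OHT list had 4 WDR5 peaks and the EtOH list 3 over chr1:167570601-167575000, where MM-401 had 1 and none of the 4 DMSO peaks was kept under MM-401.

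H3K4me2 remained over nearly all multi-WDR5 domains in every list. No domain lacked an H3K4me2 peak under MM-401, a count of 0 that allows a share of up to 0.235%, beside 31.1% of all autosomal H3K4me2 peaks below 5000 bp. In EtOH 1 domain and under 4OHT 2 domains lacked one, beside 31.0% and 34.6% of all. Most H3K4me2 peaks are much narrower, and their loss goes with width. Weighted to the widths of multi-WDR5 domains, the share with no H3K4me2 peak under MM-401 was 0.134% of single-WDR5 domains and 0.930% of peaks with no WDR5, so near-complete retention was shared by peaks of that width. At least 90% of the length was covered in 80.1% (77.9 to 82.2) of domains under MM-401, 92.0% (90.4 to 93.4) with EtOH and 82.4% (80.2 to 84.4) under 4OHT, against 34.7%, 40.7% and 35.1% of all. In 892 domains, 70.0%, coverage was at least 90% in all 3 lists.

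Multi-WDR5 domains were covered more fully than single-WDR5 domains. The share with at least 90% coverage was higher by 11.7 percentage points (9.28 to 14.1) under MM-401, 16.2 (14.4 to 17.9) with EtOH and 14.5 (12.1 to 16.7) under 4OHT. Weighting single-WDR5 domains to the same widths brought them to 72.0%, 83.6% and 75.1%, still below the intervals of the multi-WDR5 domains. With widths weighted alike, the mark was also less often divided into several peaks. More than 1 H3K4me2 peak lay over 17.3% (15.4 to 19.5) of multi-WDR5 domains under MM-401, 13.3% (11.6 to 15.3) with EtOH and 18.1% (16.0 to 20.3) under 4OHT, against width-weighted shares of 25.3%, 19.2% and 24.6% in single-WDR5 domains. Without weighting, the single-WDR5 shares were 17.4%, 15.0% and 18.7%, close to those of multi-WDR5 domains.

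Coverage was lowest at the ends of the domains. In all, 94.2% of the bases of multi-WDR5 domains were covered under MM-401, 97.2% with EtOH and 95% under 4OHT. The outermost 10% at each end was covered to 79.2%, 90.3% and 83.2%, and the middle 20% to 99.6%, 99.7% and 99.3%. Single-WDR5 domains had the same shape, with 75.2%, 84.2% and 77.6% in the outermost 10% at each end. Bases under DMSO WDR5 peaks, which tend to lie in the middle, were covered to 99.4%, 99.5% and 98.6%, against 93.4%, 96.8% and 94.4% of the other bases of the domains. Domain ends also moved outward in other cases. Of the edges of domains that had an H3K4me2 peak, 62.9% (61.0 to 64.7) were unchanged or further out under MM-401. With EtOH this share was 83.7% (82.2 to 85.1), and under 4OHT 70.4% (68.6 to 72.2). The median shift of an edge was outward, by 50 bp under MM-401, 250 bp with EtOH and 75 bp under 4OHT.

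**Figure D5:**
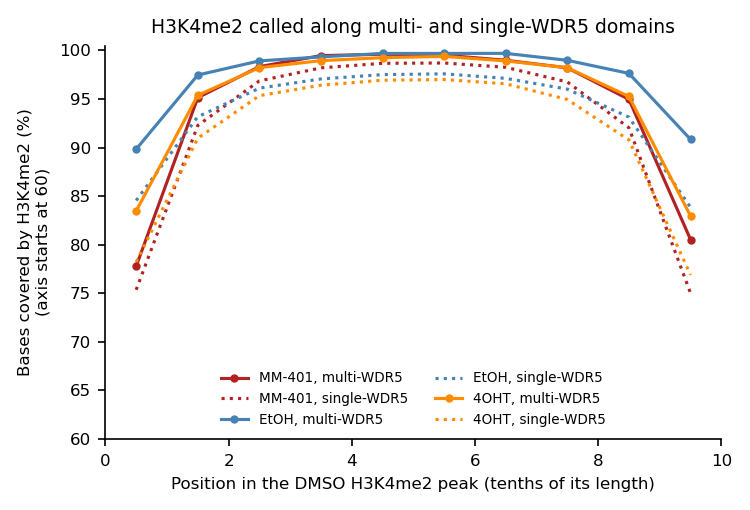
Bases covered by H3K4me2 peaks of the MM-401, EtOH and 4OHT lists (%, axis from 60) in 10 equal bins along the DMSO H3K4me2 peak, for multi-WDR5 (solid) and single-WDR5 domains (dotted). Coverage is above 99% in the middle of multi-WDR5 domains in each list, and the outermost bins together are covered to 79.2% under MM-401, 90.3% with EtOH and 83.2% under 4OHT.

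Coverage by H3K4me2 was high also where no DMSO WDR5 peak was kept. Such domains can still hold a WDR5 peak called at another place. Under MM-401, 78.7% (75.1 to 81.8) of the 567 domains with no WDR5 peak kept were covered to at least 90%, against 86.7% (80.3 to 91.2) of the 150 with every one kept, a difference of 8.01 points (Newcombe interval 0.895 to 13.8), while the 557 with some kept reached 79.9%, a difference from none of 1.23 points (-3.51 to 5.97). In EtOH the shares were 90.1% with none kept, 93.5% with some and 92.9% with every one. Some exceeded none by 3.39 points (0.125 to 6.72) there, and every one exceeded none by 2.82 points (-2.34 to 6.86). Under 4OHT the shares were 79.5%, 85.2% and 84.2%, with differences from none of 5.63 points (1.17 to 10.0) for some and 4.64 points (-2.97 to 10.8) for every one. The domain chr1:52285276-52289975 shows the first case, as none of its 5 WDR5 peaks was kept under MM-401 while 98.9% of its length was covered by H3K4me2. The MM-401 list had 1 WDR5 peak of 75 bp at another place in this domain. At chr5:144224176-144227900, where none of 4 WDR5 peaks was kept in any list, coverage was 95.3% under MM-401 and 100% with EtOH and 4OHT. There too the MM-401 list had a WDR5 peak of 75 bp between DMSO peaks.

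The 3 domains without H3K4me2 in the flox cells differed from that pattern. The domain without it in EtOH, chr11:3032326-3033800, was covered to 16.9% in both MM-401 and 4OHT, and its WDR5 peaks of 75 bp were kept in none of the lists. The domains without it under 4OHT, chr15:96889076-96891325 and chr14:51875001-51875875, were covered to 28.9% and 14.3% in EtOH, and no WDR5 peak was called over them in either flox list. Under MM-401 both were covered to 100%, with 1 of 2 and 2 of 2 WDR5 peaks kept. These last 2 domains were thus called in both treatments of the MAF9 cells and were mostly uncovered in both treatments of the flox cells.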

How the data were processed

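Peaks were called by the authors for each ChIP-seq library and deposited as positions (chromosome, start and end) with no score, signal or read count. The submitters' processing notes name Bowtie and mm9. In 9 of the 10 lists the deposited names identify HPeak, and starts lay on a grid of 25 bp and were read as 1-based. The DMSO MLL1 list was called with MACS and was read as 0-based. For the HPeak lists, thresholds and filters are not given in the sources used here.

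Overlaps of at least 1 bp were computed with Python 3.11.15, numpy 2.4.6 and pandas 2.3.3, tested on 4000 simulated domains and checked with bedtools 2.31.1. Intervals are 95%. Single-WDR5 shares were reweighted over width classes (500, 1000, 2000, 3000, 4000 and 5000 bp for domains, 100, 200, 300 and 500 bp for WDR5 peaks). Named domains were those with the most WDR5 or MLL1 peaks, the widest or narrowest gap, none or all WDR5 peaks kept, no H3K4me2 in another list, or a width at the limit, with ties taken in chromosome order. The domains and comparisons were chosen with earlier results of these data known. Genes are not named and no sequence is printed, since the gene table used here is in GRCm38, not mm9. Alternatives were the overlap distance or fraction, joined WDR5 peaks, the width limit, lists of equal length, the coverage threshold and chromosome 1.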

Additional observations from a re-analysis of the deposited data

Results flagged for a closer look

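The median width of WDR5 peaks over the multi-WDR5 domains moved in opposite directions in the MAF9 and the flox cells. It was 175 bp in DMSO and 200 bp under MM-401, a change of 25 bp, and 200 bp in EtOH and 175 bp under 4OHT, a change of -25 bp, so each change is 1 step of the grid of the peak caller. The number of domains with 2 or more WDR5 peaks changed by -960 from DMSO to MM-401 (1274 to 314) and by 4 from EtOH to 4OHT (375 to 379). The DMSO side of both comparisons is fixed by the choice of domains on the DMSO lists, and with 1 library per condition the differences were not tested.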

How the results depend on the processing

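In all, 63 alternative values of 14 results were computed. Of these, 33 moved by less than the counting interval (or 1.5 times for the number of domains), 30 moved further and 0 reversed. A reversal could be recorded only for the differences between multi- and single-WDR5 domains, not for counts, medians or shares. No paired analysis was possible because each condition and antibody had 1 library. Counting peaks up to 500 bp apart as shared raised WDR5 kept under MM-401 to 58.7% and EtOH WDR5 kept under 4OHT to 69.9%, and domains with 2 or more WDR5 peaks to 29.1% under MM-401, 38.3% with EtOH and 38.0% under 4OHT. Requiring that at least 50% of the peak be covered lowered WDR5 kept to 22.5% under MM-401 and 27.4% from EtOH to 4OHT. Joining WDR5 peaks 100 bp apart or less gave a median gap of 375 bp, 2 or more WDR5 peaks in 27.6% under MM-401 and 32.6% under 4OHT, and 90% H3K4me2 coverage in 93.5% with EtOH and 85.0% under 4OHT. Without a width limit the median gap was 325 bp, MLL1 was present in 26.0% and exceeded single-WDR5 domains by 14.8 points, EtOH WDR5 was kept under 4OHT in 39.1%, and 2 or more WDR5 peaks were called in 31.5% under MM-401, 35.4% with EtOH and 36.8% under 4OHT. Reducing the other WDR5 lists to the 14481 widest peaks gave 31.0% WDR5 kept under MM-401 and 2 or more WDR5 peaks in 20.6% under MM-401, 15.5% with EtOH and 13.5% under 4OHT, so the order of the 3 lists depends on list length. Centres within 250 bp of an edge made up 18.8%. Coverage of at least 50% was reached by 99.8% under MM-401, 99.5% with EtOH and 99.3% under 4OHT. Leaving out chromosome 1, chosen after seeing the data, gave 2 or more WDR5 peaks in 22.3% under MM-401 and 90% coverage in 93.8% with EtOH and 85.1% under 4OHT. The difference in WDR5 kept under MM-401 between multi- and single-WDR5 domains stayed between -11.7 and -11.0 points under its 4 alternatives. The overlap distance and fraction, which changed the kept shares, were not among these alternatives. What depth limits could not be measured without read counts.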
